A study of Danio rerio with 5 samples.

Results

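The controls of this study were whole embryos of the zebrafish, Danio rerio, taken 4 hours after fertilisation and measured in the 3 RNA-seq libraries labelled RfxCas13d control. They were chosen by that label and make up 3 of the 5 libraries of the series. RfxCas13d is a nuclease that a guide RNA directs to a matching transcript, which it cuts, and the study asked how many guide RNAs can be injected together. The controls carry the label RfxCas13d and list no guide RNA. The other libraries, 1 of a pool of 10 guides and 1 of a pool of 25 guides, both with a guide against szrd1, came from embryos of the same age. They serve here as a comparison, and also enter the scaling of counts, the test of replicate 3 and the sorting of genes into bins. Libraries of control replicates 1 and 2 were made in 1/4 of the kit's reaction volume, and those of control replicate 3 and of both pools in 1/8. The labels name neither the strain, the number of embryos per library nor whether replicates were separate clutches, so the p-values below reflect no more than how far these samples vary, and that variation may be technical.

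Zebrafish embryos begin life on mRNA and protein stored in the egg, and their own genome is silent during the rapid cleavage divisions. Genome activation starts shortly before the stage sampled here. It depends on transcription factors translated from maternal mRNA, and it is followed by destruction of much of the maternal mRNA, in part through the microRNA miR-430. At the same time the outermost cells form the enveloping layer, a flat protective epithelium, and nuclei at the margin enter the yolk cell to form the yolk syncytial layer.

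The control libraries held 13104114, 14179837 and 5283761 counts assigned to genes in replicates 1 to 3. The share of all reads in the count table that named no gene was 27.1%, 32.0% and 53.8%, and the unmapped share was 13.1%, 16.0% and 44.0%, so control replicate 3 stood apart in depth and in unmapped reads. In the pools the unmapped share was 21% and 13.8%. Many results are therefore given for each control replicate, whereas values given as a mean ± SD cover all 3 controls.

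The most abundant entry in every control was NC_002333.4 (ENSDARG00000080337), an entry carrying the accession-style name of the mitochondrial genome record, with 100227, 148031 and 62258 TPM (a level scaled for transcript length and library total) in replicates 1 to 3. It took 12.9%, 19.5% and 6.39% of the gene counts. It was highest in control replicate 2 and lowest in control replicate 3, against 5.94% and 6.11% of counts in the pools of 10 and 25 guides. All mitochondrial entries together held 12.2%, 17.3% and 7.17% of TPM, whereas the 13 mitochondrial mRNAs held 1.89%, 2.11% and 0.857%. Of these, mt-co2 and mt-co3, subunits of cytochrome c oxidase, ranked among the 10 most abundant entries, with 5417, 7186 and 1500 TPM for mt-co2 and 5130, 5275 and 1739 TPM for mt-co3. mt-co1, the catalytic subunit of the same enzyme, was nearly level across the controls on this scale, at 1537, 1480 and 1490 TPM.

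Among nuclear genes with counts of their own, histone, cell cycle and housekeeping transcripts led. The replacement histone H3.3 gene h3f3b.1 (ENSDARG00000020504) had 6028, 10279 and 12168 TPM, and the histone H2A variant gene h2af1al had 10422, 5145 and 3600 TPM. These genes ordered the replicates in opposite ways. The glycolytic gene gapdh averaged 3367 ± 1610 TPM, the egg claudin gene cldnd 3254 ± 981 TPM, the copper chaperone gene cox17 3162 ± 2039 TPM and the cell surface glycoprotein gene thy1 2841 ± 585 TPM (SD, n = 3 each). The RNA-binding protein gene hnrnpa0l (ENSDARG00000036161), at 2605 ± 167 TPM, had the smallest SD of the 25 most abundant entries. Cell division transcripts were prominent: the mitotic cyclin gene ccnb1 averaged 2396 ± 376 TPM, the early embryonic cyclin gene ccna1 2267 ± 640 TPM and the ribonucleotide reductase gene rrm2 (ENSDARG00000078069) 2529 ± 806 TPM (SD, n = 3 each). banf1, which helps to rebuild the nucleus after mitosis, averaged 2195 ± 458 TPM (SD, n = 3). Apart from hmgb2a, which had few counts and is described below, the remaining entries among the first 25 carry clone-based names only. They include zgc:100951, zgc:55413, zgc:113886, FO704836.1 and FO834825.3, at means between 2303 and 3095 TPM.

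**Figure D1:**
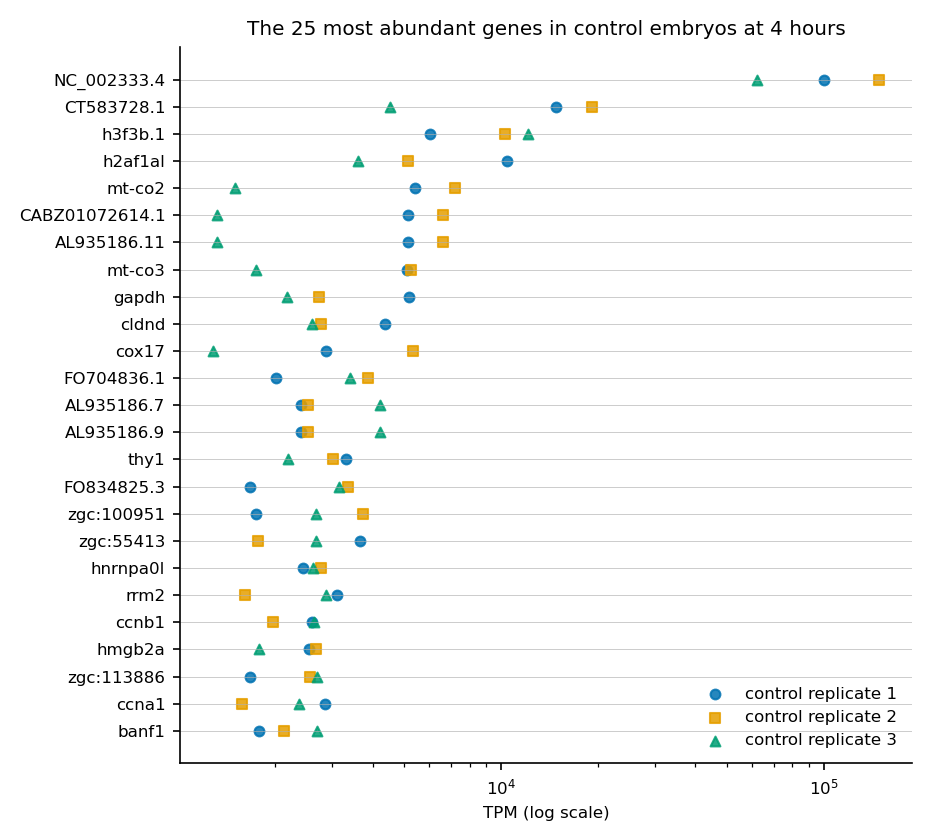
The 25 entries with the highest mean TPM over the controls, 1 line per entry and 1 symbol per control replicate, on a logarithmic TPM axis. The entry named after the mitochondrial genome record lies far to the right of all others, from 62258 TPM in replicate 3 to 148031 TPM in replicate 2.

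Some of the abundant entries had TPM but almost no counts. CT583728.1 was listed at 14799, 19079 and 4532 TPM with 4, 2 and 1 counts. CABZ01072614.1 had 0, 4 and 0 counts and the same TPM in every control (5151, 6595 and 1322) as AL935186.11, which had 5128, 6976 and 345 counts. AL935186.7 and AL935186.9 were likewise identical at 2404, 2521 and 4210 TPM, with at most 3 counts in a control. Of 8834 genes with a mean of at least 10 TPM, 226 had under 0.5 counts per TPM, and they held 4.65%, 5.37% and 3.29% of TPM. This set included the chromatin protein gene hmgb2a, listed at 2546, 2676 and 1777 TPM with 304, 296 and 60 counts, and the splicing protein gene snrpd3, with 51, 21 and 8 counts beside a TPM of 1668, 1500 and 795. The levels of such genes are uncertain, since reads shared between copies can be credited in TPM and left out of counts.

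The transcriptome was dominated by few genes in control replicates 1 and 2 and was more even in replicate 3. The 100 most abundant genes held 31.6%, 36.2% and 22.8% of TPM, a mean of 30.2% ± 6.81 (SD, n = 3). Without mitochondrial entries the share was 23.4%, 24.1% and 17.7% in replicates 1 to 3, a mean of 21.7%. The most abundant genes that together hold 50% of all TPM numbered 425, 323 and 852 in replicates 1 to 3, and 840 and 930 in the pools of 10 and 25 guides.

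The deposited tables list 32520 genes. A count was present for 20339, 21052 and 17939 of them in control replicates 1 to 3, for 16502 in all 3 controls, and for none of the controls in 9354 (28.8%). Levels reached 1 TPM in all 3 controls for 12962 genes (39.9%), 10 TPM for 6863, 100 TPM for 1308 and 1000 TPM for 46. Replicate 3 had fewer genes with a count than its depth alone gives. It showed 17939, whereas replicates 1 and 2, thinned to its depth, would be expected to show 19124 and 19674 genes. At the 1 TPM level the order was turned round, with 15554 genes in replicate 3, against 14802 and 15122 in replicates 1 and 2. Genes past 1 TPM in replicate 3 alone numbered 1451, against 591 and 776 in replicates 1 and 2 alone. A further 2215 genes had counts in replicates 1 and 2 and none in replicate 3, at medians of 5 and 6 counts, close to what a count of 0 leaves undetected.

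Transcripts listed as maternal mRNAs of the oocyte and cleavage stages were abundant and almost complete. Of 40 listed genes found in the tables, 39 reached 1 TPM in all 3 controls and 36 reached 10 TPM, against 39.9% of all genes at 1 TPM. Their median mean level was 169 TPM, against 0.812 TPM over all genes. Together they held 2.28%, 1.74% and 1.91% of TPM in replicates 1 to 3 (1.98% ± 0.277, SD, n = 3). cldnd, ccnb1 and ccna1, described above, led the list, followed by the cathepsin gene ctsla at 1571, 1873 and 1987 TPM. btg4, an adaptor that recruits the deadenylase to maternal mRNA, was at 741, 728 and 464 TPM. Messages with roles in the egg itself also stood at high levels: the linker histone gene h1m had 1103, 878 and 584 TPM, the Balbiani body gene buc 334, 181 and 600 TPM, and zar1l, a relative of the oocyte gene zar1, 731, 489 and 460 TPM. The list's remaining gene, zgc:113531, had 0.10 TPM in replicate 1 and was listed at 0 in replicates 2 and 3. Among members at a mean of 5 CPM or more, the most even in counts was the anaphase activator gene cdc20, with an SD of log2 CPM of 0.17, and the least even was the nucleoplasmin gene npm2a (0.95), at 215, 186 and 103 TPM.

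The 16 maternal transcription factors and cofactors of genome activation reached 1 TPM in all controls without exception, and 15 of them reached 10 TPM. nanog, pou5f3 and sox19b, which open the zygotic genome, had 585, 581 and 1388 TPM for nanog, 300, 355 and 728 TPM for pou5f3 and 116, 122 and 169 TPM for sox19b. The BMP signal transducer gene smad5 had 162, 272 and 593 TPM. All of these were highest in replicate 3 on the TPM scale. The list held 0.160%, 0.177% and 0.404% of TPM, and the same share was 0.370% and 0.374% in the pools, which were also made at 1/8 volume.

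Transcripts of genes listed as zygotic were present but made up less. In libraries of a single stage, stored and newly made transcripts of a gene cannot be told apart, so the lists do not measure origin. Of 70 zygotic genes, 55 reached 1 TPM in all controls, 40 reached 10 TPM and 4 had no count in any control. Their median level was 20.2 TPM, and their summed share was 0.522%, 0.765% and 0.659% of TPM (0.649% ± 0.122, SD, n = 3). In every control the maternal list therefore exceeded the zygotic list, although the sums depend on which genes are listed. nnr, at 1443, 1669 and 542 TPM, was the most abundant zygotic gene, followed by the ubiquitin-like gene isg15 at 373, 1420 and 843 TPM, asb11 at 177, 310 and 746 TPM and the zinc finger gene blf at 334, 405 and 404 TPM. Regulators of the germ layers lay lower. The mesoderm T-box gene tbx16 had 15.4, 47.4 and 58.6 TPM, and tbxta, the Brachyury gene of the later notochord, 6.90, 8.86 and 31.5 TPM. The Nodal ligand gene ndr1 had 24.1, 25.1 and 21.9 TPM, and the BMP ligand gene bmp2b 22, 31 and 38.6 TPM. dusp6, a feedback phosphatase of FGF signalling, was the most even zygotic gene in counts among those at a mean of 5 CPM or more (SD of log2 CPM 0.15). The transcriptional repressor gene her3 was the least even (1.91), at 34.5, 4.62 and 4.39 TPM, with only replicate 1 high. The members without a count were pnx, cdx1a and both entries named wnt8a. The wnt8a entries were nevertheless listed at 25.2, 34.2 and 36.4 TPM and at 8.72, 12.8 and 16.9 TPM, so their absence from the counts is no sign of silence.

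Of the enveloping layer markers, 17 of 25 reached 1 TPM in all controls, against 39.9% of all genes. Their summed share was 0.296%, 0.417% and 0.424% of TPM. epcam, an adhesion molecule that is also maternal, led with 1745, 1732 and 1432 TPM. In replicate 1 the whole list summed to 2962 TPM, so epcam made up most of the share there. The keratin gene krt18a.1 had 258, 793 and 759 TPM, the layer's regulator klf17 437, 345 and 287 TPM and the claudin gene cldn7b 165, 245 and 297 TPM. Yolk syncytial layer markers were fewer: 7 of 21 reached 1 TPM in all controls, against 39.9% of all genes. Their share was 0.0328%, 0.0540% and 0.0422% of TPM. Most of that was mxtx2, the homeobox inducer of the layer, at 291, 371 and 264 TPM. The lipoprotein transfer gene mttp reached 0.03, 1.41 and 1.77 TPM, and the transthyretin gene ttr had no count. Germ plasm mRNAs, which the egg supplies to the future germ cells, reached 1 TPM in all controls for 18 of 19 entries, with nanos3 at 116, 182 and 63.1 TPM, ddx4 (vasa) at 50.3, 40.1 and 110 TPM and the Piwi gene piwil1 at 15.4, 10.5 and 19.4 TPM. The list includes h1m, ca15b, buc and other genes of the maternal list.

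Genes used in every cell were high. The 80 cytosolic ribosomal protein genes held 2.2%, 2.2% and 1.35% of TPM, 79 of them at 10 TPM or more in all controls, led by rps20 at 2385, 2137 and 1442 TPM. All 32 cyclin and division genes reached 1 TPM in all controls. Of 16 linker and variant histone genes 15 did so, and so did 42 of 43 cytoskeleton and housekeeping genes, among them the nuclear transport GTPase gene ran at 2041, 1478 and 1213 TPM. The 14 translation elongation genes ranged widely. tpt1, encoding the translationally controlled tumour protein, had 1201, 752 and 643 TPM and the main elongation factor gene eef1a1l1 451, 533 and 1200 TPM, whereas 4 members did not reach 1 TPM in all controls.

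Genes of tissues that form later were nearly silent. The 7 lists of late tissues hold 210 genes, and together they took 0.0268%, 0.0291% and 0.0197% of TPM. No count was found for 71 of them (33.8%, against 28.8% of all genes), and 20 reached 1 TPM in all controls (9.52%, against 39.9% of all genes). Of the muscle and heart genes 15 of 34 had no count, of the liver, gut and pancreas genes 16 of 36, of the pituitary and peptide hormone genes 12 of 27, of the blood and immune genes 11 of 33, of the lens and photoreceptor genes 11 of 32, of the neuron and glia genes 4 of 29 and of the pigment cell genes 2 of 19. The share was below the 28.8% of all genes for neuron and glia and for pigment cell genes. It lay near 28.8% for the blood and lens lists. A count of 0 in all controls allows up to 3 counts per library, which is 0.519 CPM (counts scaled to the library total) in replicate 3.

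The 20 exceptions were mostly low. The highest was the lens gene crygn1, a gamma crystallin, at 100, 96.0 and 54.5 TPM, high in every control. The neural crest regulator foxd3, also listed as a zygotic gene, had 11.7, 10.7 and 10.4 TPM. Of the pigment genes, pnp4a had 3.79, 32.7 and 9.07 TPM, the melanosome transport gene mlpha 5.59, 5.62 and 12.6 TPM, the melanin synthesis gene dct 9.52, 6.14 and 1.27 TPM and tyr, the tyrosinase gene, 6.23, 1.85 and 3.51 TPM. The pancreas regulator pdx1 had 9.67, 11.6 and 1.05 TPM, the parathyroid hormone gene pth1a 6.70, 15.9 and 3.23 TPM, the myelin gene plp1a 8.54, 4.78 and 3.60 TPM and the cone opsin gene opn1sw2 6.52, 5.73 and 11.2 TPM. In muscle, tnnt3a, a fast troponin T gene, had 5.13, 5.79 and 7.55 TPM. The other members past 1 TPM in all controls were acta1b, mylpfb and ckma of muscle, cryba1a, cryba2a and arr3b of the eye, and coro1a, il1b and rag2 of blood, at means under 5 TPM. The globin entries named hbba1 were at 12.6, 0.99 and 0 TPM and at 5.36, 3.96 and 0 TPM in replicates 1 to 3, so they were listed at 0 in replicate 3.

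**Figure D2:**
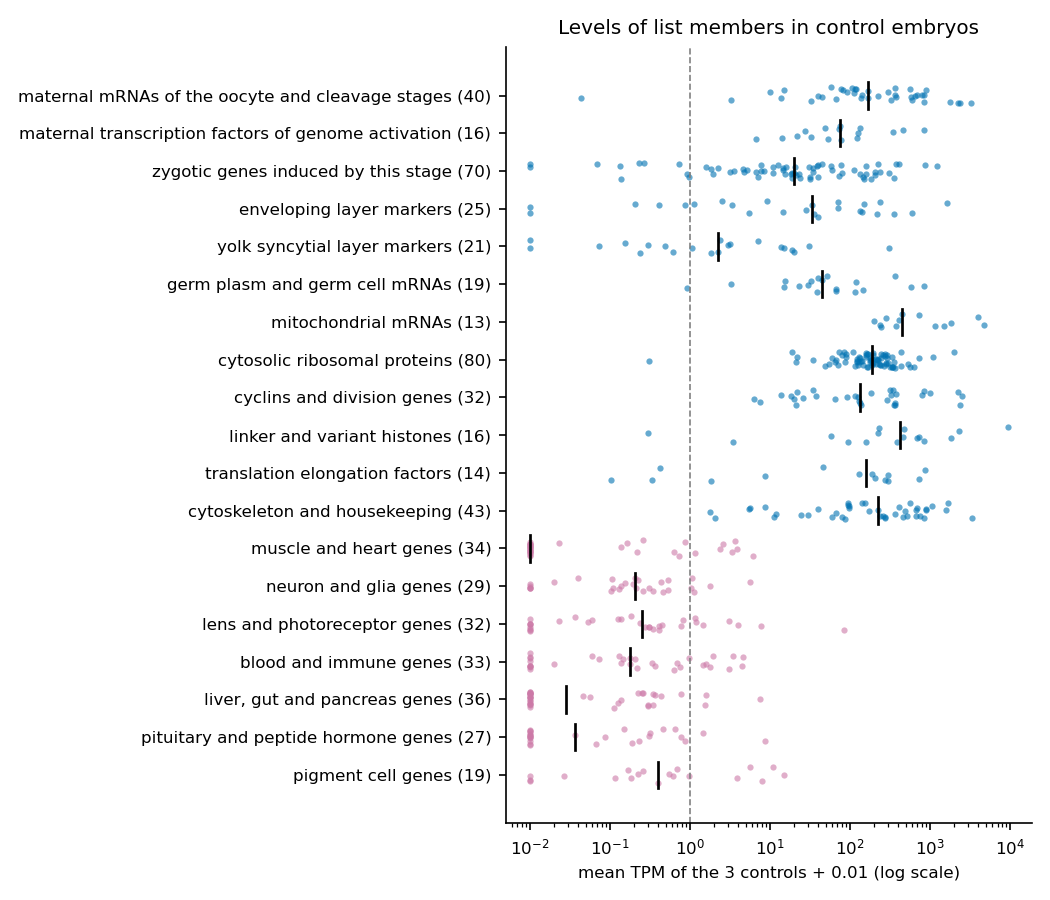
Mean TPM of the 3 controls plus 0.01, on a logarithmic axis, for every gene of 19 lists, with the number of genes in brackets; each dot is a gene, the black bar the median, and the dashed line marks 1 TPM. Lists of maternal, zygotic and general genes (blue) lie mostly right of the line and the 7 late tissue lists (pink) mostly left of it, with crygn1 as the far right pink dot.

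Several families, grouped by their symbols, were low or without counts. Of 141 olfactory receptor genes 121 had no count in any control and 0 reached 1 TPM in all of them, at 90, 167 and 24 counts for the whole family in replicates 1 to 3. No count was found for 61 of 94 trace amine receptors, 88 of 105 immunoglobulin and T cell receptor segments, 37 of 57 protocadherins and 40 of 60 crystallins. The share was 83.8% for the receptor segments, against 28.8% of all genes. It lay near that of all genes for opsins, with 13 of 40 (32.5%), and for globins, with 5 of 15 (33.3%). Some members were present: 4 crystallins reached 1 TPM in all controls, among them crygn1 and crygmxl1, with crygmxl1 at 19.1, 40.5 and 56.0 TPM, and the protocadherin gene pcdh1b had 3.36, 6.99 and 27.7 TPM, highest in replicate 3. For the yolk precursor genes, the vitellogenins, 5 of 7 had no count, and the family had 0, 9 and 0 counts. Of 48 Hox genes, which pattern the later body axis, 16 had no count (33.3%), near the 28.8% of all genes. Only hoxd9a reached 1 TPM in all controls (1.42, 3.97 and 3.01 TPM), against 39.9% of all genes. The 243, 550 and 38 counts of the Hox genes were most frequent in replicate 2. Only 2 of 105 receptor segments and 2 of 40 opsins reached 1 TPM in all controls.

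In contrast, all 19 zona pellucida genes, which encode the egg coat, reached 1 TPM in all controls. zp3 averaged 355 ± 193 TPM (SD, n = 3). Of 342 zinc finger genes named znf, 279 did so (81.6%, against 39.9% of all genes), and 7 had no count. Genes that carry only a clone name made up 12743 entries, of which 6436 (50.5%, against 28.8% of all genes) had no count. MicroRNA genes had no count in 257 of 303 cases (84.8%). The 55 entries of the mir-430 cluster, whose microRNA clears maternal mRNA, had 21, 25 and 9 counts, yet 274, 601 and 1018 TPM in all, and 310 and 90.9 TPM in the pools of 10 and 25 guides. No count was found for 48 of these entries, whereas 40 reached 1 TPM in all controls, so a count of 0 there is no sign of silence.

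Control replicates 1 and 2, made at the same volume, were the closest pair of controls. Over 15382 genes with a mean of at least 10 counts, Pearson's r of log2(CPM + 0.5) across genes was 0.942 between replicates 2 and 1, 0.870 between replicates 3 and 1 and 0.865 between replicates 3 and 2. CPM here is the count scaled to the library total by TMM (edgeR). Across genes, which are no independent replicates, 84.0% lay within 2-fold between replicates 2 and 1, against 58.0% and 58.2% for replicate 3 with replicates 1 and 2. Replicate 3 was closer to the pools, with r of 0.932 and 0.936 and 80.4% and 81.5% of genes within 2-fold. The pools share its 1/8 volume but carry guides. Among the 2440 genes at 100 CPM or more, 53.2% lay within 2-fold over all 3 controls, and 62 had an SD of log2 CPM under 0.1. The steadiest were pgrmc2, a haem-binding membrane protein gene, at 317, 315 and 320 CPM, and marcksb, a membrane-associated kinase substrate gene, at 706, 720 and 720 CPM. The others of the first 10 were ivd, bcl7ba, anp32e, ndufs8a, max, pnn, u2af2b and zgc:92287, all with an SD of log2 CPM under 0.04. They span mitochondrial metabolism (ivd, ndufs8a), chromatin (bcl7ba, anp32e), the Myc partner Max and splicing (pnn, u2af2b). The steadiness of these 10 genes holds on the CPM scale only. In TPM each was highest in replicate 3, with pgrmc2 at 151, 136 and 233 TPM and marcksb at 445, 410 and 699 TPM in replicates 1 to 3.

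**Figure D3:**
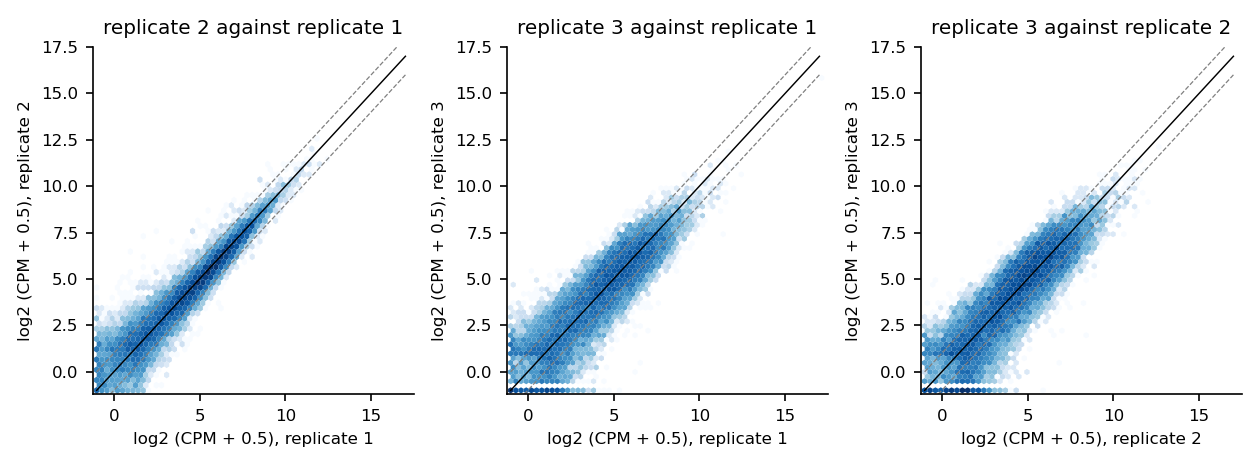
log2(CPM + 0.5) of the 16445 tested genes in each pair of controls, with darker blue for more genes, the solid line for equal values and dashed lines for 2-fold differences. The cloud of replicate 2 against replicate 1 is narrow (r = 0.942), and both clouds with replicate 3 are wider (r = 0.870 and 0.865, each over the 15382 genes at a mean of 10 counts).

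Although replicates 2 and 1 agreed closely, they differed in genes listed as zygotic and in markers of the enveloping and yolk syncytial layers. Of 11366 genes with a mean of at least 5 CPM over the controls, 694 (6.11%) were at least 2-fold higher in replicate 2 than in replicate 1 and 433 (3.81%) at least 2-fold lower, with a median log2 difference of -0.06. With 1 library against 1 there is no test, and these are sizes only. Of 53 zygotic genes past the same level, 14 were at least 2-fold higher in replicate 2 and 2 lower, with a median log2 difference of 0.66. Of 18 enveloping layer markers 10 were at least 2-fold higher and 0 lower (median 1.40), and of 10 yolk syncytial layer markers 7 were higher and 0 lower (median 1.41). The 5 CPM level is a mean that includes replicate 2. Genes very low in replicate 1, such as afp4, krt5 and the zygotic gene lft1, passed it only through the libraries where they were high. The counts for the zygotic, enveloping layer and yolk syncytial layer lists are therefore in part selected on the difference they describe. In these whole-embryo libraries fewer cells of a type and less RNA per cell cannot be told apart. Maternal mRNAs had 0 of 39 members at least 2-fold higher and 1 lower (median -0.22), and germ plasm mRNAs 0 of 18 in either direction (median -0.22). The lists overlap, with klf17 and grhl3 in the zygotic and enveloping layer lists and mxtx2, mxtx1, gata5, gata6 and hnf1ba in the zygotic and yolk syncytial layer lists.

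Keratins showed the difference most plainly. krt92 had 91.7 CPM in replicate 2 and 1.45 CPM in replicate 1, with 21.3 CPM in replicate 3. The same order held for krt4, at 372, 45.1 and 320 CPM in replicates 2, 1 and 3, for krt8, at 204, 24.8 and 106 CPM, and for the tight junction gene cldne, at 561, 126 and 329 CPM. krt5 had 26.7, 0.68 and 42.2 CPM in the same order of replicates. Replicate 1 was the lowest of the controls in all of them, and replicate 3 was above it by 4-fold or more in krt92, krt4, krt8 and krt5. In the yolk syncytial layer list, afp4 (ENSDARG00000095863) had 36.0, 0.94 and 7.96 CPM and the nuclear receptor gene hnf4a 31.9, 3.74 and 25.4 CPM in replicates 2, 1 and 3. The Nodal antagonist gene lft1 had 23.2, 2.38 and 3.12 CPM, with only replicate 2 high. The FGF ligand gene fgf3 had 21, 4.68 and 21.8 CPM and tbx16 232, 68.3 and 158 CPM, with only replicate 1 low.

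Among the genes furthest apart between replicates 2 and 1, of those with a mean of at least 20 CPM over both, were krt92, zgc:193505 (143 and 2.89 CPM), the actin-binding thymosin gene tmsb1 (174 and 4.93 CPM), and the fatty acid hydroxylase gene fa2h (72.3 and 2.98 CPM), each given as replicate 2 and replicate 1. In replicate 3 they lay in between, at 14.2 CPM for zgc:193505, 42.8 CPM for tmsb1 and 40.3 CPM for fa2h. A gene with a clone symbol beginning im: was next to fa2h, at 39.5 CPM in replicate 2 and 1.45 CPM in replicate 1. ftr83, ctsll, zgc:153018, dnase1l4.1 and spata18 followed, between 15.1-fold and 8.96-fold higher in replicate 2. At the other end, si:dkeyp-46h3.5 had 9.41 CPM in replicate 2 and 73.6 CPM in replicate 1, si:ch211-213a13.1 13.7 and 72.3 CPM, zgc:111868 74.9 and 283 CPM and the sugar reductase gene dcxr 15.3 and 55.1 CPM. An entry of the egg coat gene zp3.2 was among the 10 lowest, at 71.6 and 243 CPM. Also among them were gpx1a, tmem45a, casp23, zgc:173856 and vipas39. Of the 18 zona pellucida genes at 5 CPM or more, 17 were lower in replicate 2 than in replicate 1, 9 of them at least 2-fold (median log2 difference -0.98). Of all 11366 genes at that level 6216 were lower, and 433 (3.81%) at least 2-fold lower, with a median of -0.06. The family was chosen for this comparison with its values seen. Reads may be split between its entries of the same name, such as zp3.2, so members are not separate observations.

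**Figure D4:**
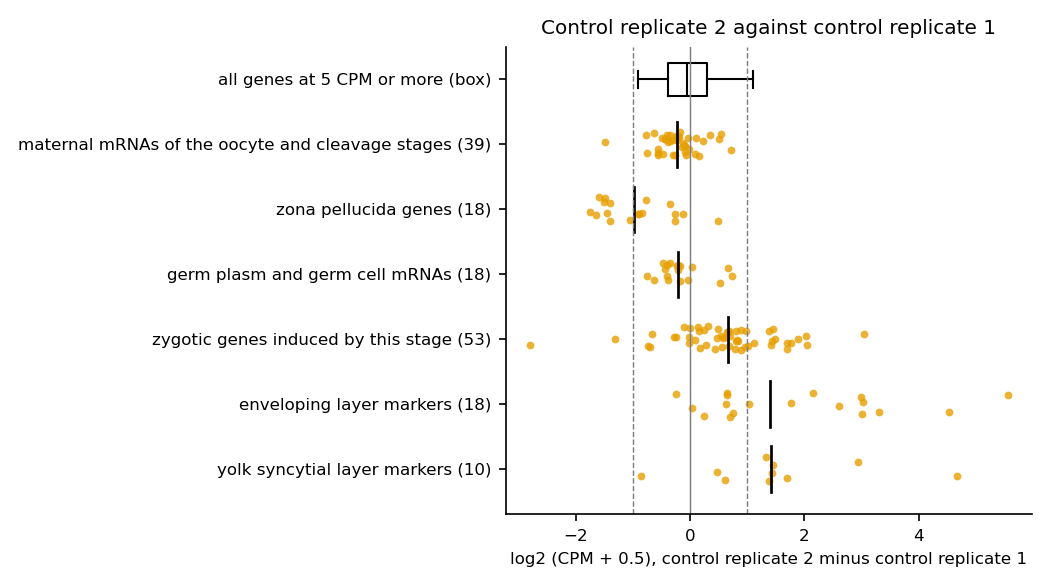
Difference of log2(CPM + 0.5), control replicate 2 minus control replicate 1, for genes with a mean of at least 5 CPM; dots are genes of each list, black bars medians, dashed lines 2-fold differences, and the box shows all such genes with its quartiles and 5th and 95th percentiles. The yolk syncytial markers have a median of 1.41 and the enveloping layer markers one of 1.40, against -0.98 for zona pellucida genes.

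Control replicate 3 had less of the ribosomal protein and mitochondrial transcripts than replicates 1 and 2, and more of single genes such as foxh1 and hnf4b. The shifts of these lists were shared by both pools. For ribosomal protein genes the median log2 CPM difference from replicates 1 and 2 was -1.34 and -1.61 in the pools of 10 and 25 guides. For mitochondrial mRNAs it was -0.70 and -0.86. edgeR's quasi-likelihood test over 16445 genes, with Benjamini-Hochberg adjustment, called 1453 genes higher (8.84%) and 1468 lower (8.93%) in replicate 3 at an adjusted p under 0.05. Only 1 control was made at 1/8 volume, so volume and library cannot be told apart, and the test takes its spread in part from the pools. Fitted on the controls alone, it called 0 higher and 0 lower (smallest adjusted p = 0.0595, with 2169 higher and 2509 lower at an unadjusted p under 0.05). The called split moved to 2396 higher and 886 lower with library size as the only scaling and to 2380 and 452 with limma on log2(TPM + 1). The median log2 fold change of all genes was -0.12 in the edgeR fit, 0.21 with library size alone and 0.50 on TPM.

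Ribosomal protein transcripts were lower as a list. Of 78 tested, 56 were lower in replicate 3 by the edgeR test and 0 higher, against 8.93% and 8.84% of all genes, with a median log2 fold change of -1.49. It stayed below 0 under every scaling, at -1.16 with library size alone and -0.66 on TPM. With library size alone 44 were called lower, against 886 of all 16445 genes. On TPM 13 were called lower, against 452 of all 16445 genes. rps28 had 508 TPM in replicate 3, against 1421 and 1314 TPM in replicates 1 and 2 (log2 fold change of CPM -2.08, SE 0.309, edgeR adjusted p = 0.00545). Replicate 3 was below both others. rplp2, a stalk protein gene, varied most among members at a mean of 5 CPM or more, at 36.4 TPM in replicate 3, against 119 and 212 TPM in replicates 1 and 2. rpl3 did not follow, at 351 TPM in replicate 3, against 196 and 198 TPM, and its CPM hardly varied (SD of log2 CPM 0.05). TPM and CPM can thus order the controls differently: the abundant entry of h3f3b.1 was highest in replicate 3 in TPM, but had 4051 CPM in replicate 3, against 3429 and 6337 CPM in replicates 1 and 2. The mitochondrial mRNAs had 7 of 13 lower and 0 higher, with a median of -1.13, and -0.79 and -0.48 under the other scalings. mt-cyb, the cytochrome b gene, had 566 TPM in replicate 3, against 2489 and 2455 TPM in replicates 1 and 2 (log2 fold change of CPM -2.65, SE 0.269, edgeR adjusted p = 0.00388). mt-nd5, a complex I subunit gene, had 315 TPM in replicate 3, against 152 and 247 TPM, and did not pass the test (adjusted p = 0.96).

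Maternal mRNAs had 12 of 39 members lower in replicate 3 and 0 higher, against 8.93% and 8.84% of all genes, with a median of -0.56. This median was -0.22 with library size alone and 0.16 on TPM, where its sign turned. The lower genes included cldnd, h1m, btg4, the growth factor gene gdf3 (vg1), mos, npm2a, dazl and the histone mRNA-binding gene slbp2. h1m had 678 CPM in replicate 3, against 2043 and 1751 CPM in replicates 1 and 2 (log2 fold change -1.49, SE 0.262, edgeR adjusted p = 0.0077). buc, cdc20, stk35l and igf2bp3 did not pass and had positive fitted values. Maternal transcription factors went the other way, with 3 of 16 higher (foxh1, yap1 and ctcf) and 1 lower (taf15), a median of 0.48 and of 0.81 and 1.26 under the other scalings. foxh1, a Nodal signal transducer, had 451 CPM in replicate 3, against 156 and 174 CPM in replicates 1 and 2 (log2 fold change 1.45, SE 0.256, edgeR adjusted p = 0.00772). Of the germ plasm mRNAs 6 of 19 entries were higher (celf1, rgs14a, tdrd1, piwil2, and 1 of the entries named kif5ba and 1 of those named hook2) and 4 lower (h1m, ca15b, nanos3 and dazl), at a median of 0.57. Against the same replicates, the pools of 10 and 25 guides had median log2 CPM differences of -0.48 and -0.60 for maternal mRNAs. These medians were 0.51 and 0.61 for maternal transcription factors and 0.96 and 0.89 for germ plasm mRNAs.

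Zygotic genes had 7 of 61 tested members lower in replicate 3 (nnr, klf17, mxtx2, irx7, dharma, admp and sox32) and 1 higher (tfap2c), at a median of -0.47. This share, like those of the 2 lists that follow, lies close to the 8.93% of all genes called lower. That median was -0.70 against replicate 2 alone, but turned positive, at 0.14, against replicate 1 alone and, at 0.46, on TPM. In the pools of 10 and 25 guides, against replicates 1 and 2, the zygotic median was -0.62 and -0.55. Of 20 enveloping layer markers tested, 2 were higher and 2 lower (epcam and klf17), at a median of -0.03. This median turned to 0.32 with library size alone and to 1.05 on TPM. Against replicate 1 alone the median of these markers was 1.32, and against replicate 2 alone it was -0.48. Yolk syncytial layer markers had 1 of 14 higher, hnf4b, and 1 lower, mxtx2, at a median of 0.23, and medians of 2.35 and -0.55 against replicates 1 and 2 alone.

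The genes named next are those with the largest called differences among genes at a mean of 10 CPM or more over the controls. That mean includes replicate 3, so a gene can reach it through replicate 3 alone. This held for hnf4b, ugt5c3, zgc:153981, mxra5b, cyfip2, ppfia1 and bag6l, each below 10 CPM in both replicates 1 and 2. These genes are therefore in part selected on the difference given for them. hnf4b, a nuclear receptor gene, had 32.0 CPM in replicate 3, against 1.02 and 0.34 CPM in replicates 1 and 2 (log2 fold change 5.53). In the pools it had 0.135 and 1.64 CPM. Replicate 3 alone was high. The actin regulator gene cyfip2 had 56.3 CPM in replicate 3, against 7.40 and 6.30 CPM in replicates 1 and 2, and the pools had 10.7 and 11.5 CPM. BX511067.1 had 122 CPM in replicate 3, against 11.4 and 10.2 CPM. For ugt5c3, a glucuronosyltransferase gene, the value was 27.9 CPM in replicate 3, against 2.81 and 1.68 CPM, with 23.9 and 12.9 CPM in the pools, so all 1/8 libraries were high. The others of the 10 highest above that level were zgc:153981, mxra5b, ppfia1, zgc:152968, bag6l and ANKRD50, at log2 fold changes between 2.72 and 3.32 (edgeR, adjusted p under 0.05).

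Of the 10 lowest above the same level, 5 had no count in replicate 3: nck1a, kcnn1b, mkxa, txlnbb and BX914200.1. Against a floor of 3 counts in that library they were at least 77.6-fold, 49.1-fold, 40-fold, 34.6-fold and 30.6-fold lower than the mean of replicates 1 and 2. nck1a, an adaptor protein gene, had 14.8 and 65.8 CPM in those replicates, and mkxa, a homeobox gene, 20.6 and 21 CPM. The entry rrm2 (ENSDARG00000020711), which shares its symbol with the abundant rrm2 gene above, had 3.46 CPM in replicate 3, against 83.2 and 336 CPM in replicates 1 and 2, and 471 and 402 CPM in the pools. Only replicate 3 was low, and reads may be split between genes of the same name. odf3l2a had 3 counts in replicate 3 (ratio 0.0102, counting interval 0.0021 to 0.0297, 95%), acer1 had 2 (0.0182, 0.0022 to 0.0657) and CU914760.1 had 3 (0.0252, 0.00521 to 0.0738). AL929192.1 had 0.865 CPM in replicate 3, against 96.2 and 111 CPM in replicates 1 and 2.

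The difference of replicate 3 moved with the number of counts per TPM, which grows with transcript length. This value was taken from the pools, outside the contrast, for 15297 genes (93.0% of those tested), split into 8 bins. From the lowest bin, at a median of 2.45 counts per TPM, to the highest, at 21.6, the median log2 fold change of replicate 3 against replicates 1 and 2 was -1.10, -0.89, -0.58, -0.22, 0.08, 0.43, 0.75 and 0.80. Genes called lower numbered 483 in the lowest bin and 37 in the highest, and genes called higher 13 and 480. Spearman's rho across genes was 0.459, against 0.0392 for replicate 2 minus replicate 1, whose bin medians stayed between -0.11 and 0.13. The pools against replicates 1 and 2 ran from -0.84 and -0.87 in the lowest bin to 0.82 and 0.83 in the highest. They share that baseline with the comparison of replicate 3. Their own counts also define the bins, so the pool values are not independent of the counts per TPM. Lists differ in the same measure: the median was 2.29 counts per TPM for ribosomal protein genes, 2.97 for mitochondrial mRNAs, 5.81 for maternal mRNAs and 10.5 for maternal transcription factors, against 7.86 for all tested genes. The part of this relation in each list's difference was not tested.

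**Figure D5:**
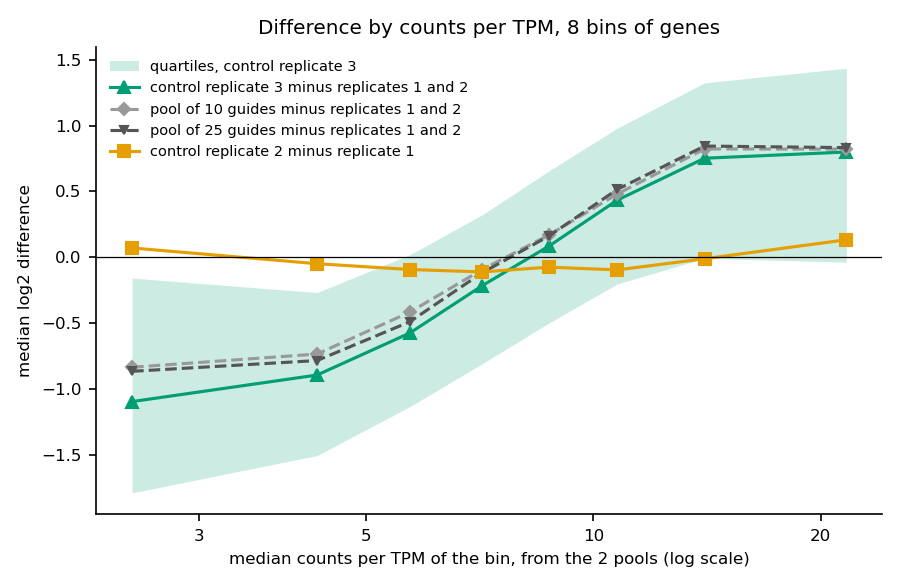
Median log2 difference of genes in 8 bins of counts per TPM, taken from the pools and shown on a logarithmic axis; lines give control replicate 3, the pools (all against replicates 1 and 2) and control replicate 2 against replicate 1, and the shaded band is the quartile range for replicate 3. Replicate 3 and both pools climb from below -0.8 to above 0.7, and replicate 2 against replicate 1 stays near 0. Counts of the pools enter both axes of the pool lines.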

How the data were processed

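RNA was sequenced from whole embryos. Per the labels' protocols, total RNA was extracted with a column kit and libraries were made with Nextera XT at the reaction volumes given above. Per the submitters' processing notes, bcl2fastq 2.20 and the build danRer11 were used; the sources used here name no aligner or counter. The authors deposited whole-number gene counts per library and a second table per library, read as TPM from its column sums. Rows beginning N_, which name no gene, were left out (4 per library, 27.1% to 53.8% of reads in the controls). The TPM table holds values for genes with few or no counts, so it credits shared reads that the counts leave out.

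Counts were scaled by TMM and tested in edgeR 4.0.16 (R 4.3.3; filter at a minimum count of 10) over all 5 libraries in 3 groups (controls at 1/4 volume, control at 1/8, both pools), with 2 residual degrees of freedom. The pools differ in their guides, so their difference enters the spread. A gene can pass the filter in 1 library, because 1 group holds 1 library. CPM on the log scale have 0.5 added. limma 3.58.1 and DESeq2 1.42.0 were alternatives. The procedure was run on simulated counts with large changes, less spread than these data and no trend with counts per TPM. That run checks the code and not the calls made here. Counting intervals and floors cover counting error only. Genes named are the 25 most abundant, the 4 highest of each list, late tissue members past 1 TPM in all controls, the steadiest and least steady members, the 10 highest and lowest in each replicate comparison (above a mean of 10 CPM over the controls for replicate 3, and of 20 CPM over replicates 1 and 2 for those) and the 10 steadiest genes; others serve as examples chosen with their values seen. Members and lists were chosen with earlier results of these data known. Gene names are those of the deposited tables, of which 29201 IDs matched the name table. No sequences or coordinates were used.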

Additional observations from a re-analysis of the deposited data

How the results depend on the processing

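Of the results on the controls as a group, the number of genes at 1 TPM (12962) was 14253 at 0.5 TPM, 8911 at 5 TPM and 13175 at 1 CPM, and without each replicate in turn it ranged from 13465 to 13708. The share of the 100 most abundant genes (30.2%) was 21.7% without mitochondrial genes, 25.9% of counts, and 27.2% to 33.9% without single replicates. The maternal share ranged from 1.82% to 2.10% and the zygotic share from 0.591% to 0.712% without single replicates.

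The calls for replicate 3 depended on the processing. Genes higher and lower were 2396 and 886 with library size alone and 2380 and 452 with limma on log2(TPM + 1). They were 2095 and 502 on log2(TPM + 0.1), 1598 and 1776 with DESeq2, and 0 and 0 with the 3 controls only. The fit on the controls only had 1 residual degree of freedom, against 2 in the main fit. What causes these differences was not tested. Without replicate 1 or 2, each control group holds 1 library and the spread comes from the pools alone, so calls of these fits are not given. The median log2 fold change of all genes was -0.06 without replicate 1 and -0.04 without replicate 2. Of 112 named genes with a fitted value, 49 passed, and 49 of those were lost with the controls only, 21 on TPM and 6 with library size alone. The count of genes at least 2-fold higher in replicate 2 (694) was 571 with library size alone and 529 on TPM, and of those lower (433) 572 and 605; these alternatives were chosen after seeing the data. No paired analysis was possible because the groups share fewer than 2 replicate numbers. The depth of replicate 3 limits what a count of 0 there can show.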

Other observations

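Genes that separated all libraries by labelled volume at 4-fold or more were few. Smaller differences were common. Replicate 3 had 58.0% and 58.2% of genes within 2-fold of replicates 1 and 2, against 80.4% and 81.5% with the pools. Of 10964 genes at 10 CPM in any library, 31 (0.283%) were at least 4-fold higher in control replicate 3 and both pools than in control replicates 1 and 2, and 40 (0.365%) were at least 4-fold lower; these rules were chosen after seeing the data. Among the higher were the ciliary transport gene ift140 and the ubiquitin ligase gene UBR1, with 18.9 CPM in replicate 3, 2.64 and 2.18 CPM in replicates 1 and 2, and 20.3 and 18.9 CPM in the pools. Among the lower were AL929192.1, mkxa and ndufs8b, a complex I subunit gene at 8.65 CPM in replicate 3, 41.8 and 43.0 CPM in replicates 1 and 2, and 2.43 and 0 CPM in the pools. In these 5 libraries volume cannot be told apart from other differences between libraries.

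Other genes stood apart in replicate 3 alone, by the same 4-fold rule against the 4 other libraries: 12 were higher and 14 lower. The higher included hnf4b, the copper transporter gene atp7b, at 12.5 CPM in replicate 3, none in replicates 1 and 2, and 0 and 0.41 CPM in the pools, and the calpain gene capn12, at 26.7 CPM, 2.13 and 5.97 CPM, and 0.14 and 2.60 CPM. The lower included taco1 (ENSDARG00000062943), a translational activator gene for a mitochondrial oxidase subunit, with no count in replicate 3, 14.1 and 13.7 CPM in replicates 1 and 2, and 14.5 and 17.1 CPM in the pools, and the Polycomb gene cbx8a, at 1.21 CPM, 12.4 and 25.7 CPM, and 37.3 and 26.3 CPM.

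The small mitochondrial entries, 22 in number, had a count in 19, 21 and 6 cases in control replicates 1 to 3, with 338, 417 and 9 counts in all.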
